A study of Mus musculus with 6 samples.

Results

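The genes described here encode parts of the machinery that passes the electrical impulse from one heart muscle cell to the next: Scn4b, an auxiliary subunit of the sodium channel, the connexins Gja1, Gja5 and Gjc1, and the desmosomal genes Pkp2, Dsp, Dsg2 and Jup. They were chosen by name, as the probes whose RefSeq accession maps to 1 of these 8 symbols, and all 8 had a probe and passed the filter on dim probes, among 20020 genes and unnamed features tested. Whole hearts of C57/B6 mice aged 8 weeks were compared, 1 array per heart. The 3 control hearts carried the alleles given as PHD2/3f/f (floxed PHD2 and PHD3) with genotype Cre-/-, and the 3 others carried the same floxed alleles with Cre+/- and are called KO-labelled hearts below. Both groups therefore share the floxed alleles, and the labels used here give neither the promoter that drives Cre nor the sex of the mice. The replicates are separate hearts.

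At the intercalated disc, where heart muscle cells meet end to end, desmosomes anchor the intermediate filaments, adherens junctions anchor the contractile filaments, and gap junctions built from connexins let current pass. Sodium channels cluster at the same discs and start the action potential, and their beta subunits adjust channel gating and adhesion. Inherited loss of desmosomal proteins is a known cause of arrhythmogenic cardiomyopathy. PHD2 and PHD3, encoded by Egln1 and Egln3, use oxygen to hydroxylate the hypoxia-inducible factors (HIF), which are then degraded.

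Of the 8 genes, 4 fell in KO-labelled hearts, which were Scn4b, Dsg2, Jup and Dsp, and 0 rose. The other 4, Gja1, Gja5, Gjc1 and Pkp2, did not pass. The transcriptome as a whole differed between the groups, since 39.1% of all genes and features passed, 16.1% higher and 23% lower, so 4 of 8 is a share near that background and is not a result about these genes as a set. The groups did not overlap for 5 of the 8, 4 lower and 1 higher, where 55.9% of all genes and features had no overlap, 33.1% lower and 22.7% higher. Their median log2 difference was -0.27, beside -0.11 over all genes and features. A gene passed here when the Benjamini-Hochberg adjusted p of limma's moderated test over all 20020 was below 0.05. Signal is given as log2 relative to the 75th percentile of the array, so it compares hearts for 1 probe and does not rank one gene against another. Fewer cells of a type and less RNA per cell cannot be told apart in whole hearts.

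All 6 arrays lay on 1 slide, with the control arrays in another column of positions than the KO-labelled arrays, so that position and group cannot be told apart. Between 25771 and 28354 probes per array lay well above background, and 0 probes of these genes were saturated. The targeted gene Egln1 had a log2 difference of -1.23 (adjusted p = 0.00653) and Egln3, itself known as a HIF target, 1.98 (adjusted p = 0.00166), so Egln3 goes against its label at face value, and whether its probe lies in a deleted part is not known here. All 14 cardiomyocyte markers were well above background on all 6 arrays. Some atrial genes differed widely between hearts within each group. Sln, the atrial regulator of the calcium pump, had -2.79, 7.30 and 5.42 in the control hearts and 6.01, 7.44 and 0.84 in the KO-labelled hearts. Control replicate 1 and KO-labelled replicate 3 were the lowest of the 6 hearts for Sln, but not for every atrial gene, as Nppa, the atrial natriuretic peptide gene, had 7.12, 10.42 and 8.61 in control and 10.37, 10.73 and 10.46 in KO-labelled hearts.

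Reference promoter windows of 5 of the 8 genes were searched, and those of Gjc1, Pkp2 and Dsg2 were not. The 3 printed here are those that hold a match to a HIF core motif, 2 upstream of genes that fell (Scn4b and Dsp) and 1 upstream of a gene that did not pass (Gja1). Each line gives the 250 bases before the annotated start, 5′ to 3′ on the gene's strand, from RefSeq on GRCm38.p6, with capitals for the match.
Scn4b (chr9:45138374-45138623, + strand): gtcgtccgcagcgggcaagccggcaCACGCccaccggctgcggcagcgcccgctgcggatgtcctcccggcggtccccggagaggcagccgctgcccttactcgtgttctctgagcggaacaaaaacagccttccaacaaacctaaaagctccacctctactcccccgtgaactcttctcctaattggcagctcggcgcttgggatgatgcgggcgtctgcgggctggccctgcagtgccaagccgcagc
Dsp (chr13:38151044-38151293, + strand): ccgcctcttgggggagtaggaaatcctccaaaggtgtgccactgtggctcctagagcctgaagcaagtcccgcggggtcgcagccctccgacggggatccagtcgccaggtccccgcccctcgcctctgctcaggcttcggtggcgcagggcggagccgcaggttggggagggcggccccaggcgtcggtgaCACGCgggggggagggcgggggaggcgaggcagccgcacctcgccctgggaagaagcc
Gja1 (chr10:56377050-56377299, + strand): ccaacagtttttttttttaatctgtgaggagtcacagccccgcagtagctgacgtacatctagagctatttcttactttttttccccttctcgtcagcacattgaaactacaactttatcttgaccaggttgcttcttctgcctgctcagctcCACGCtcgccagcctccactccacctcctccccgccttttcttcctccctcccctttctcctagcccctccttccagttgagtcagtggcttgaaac
The motifs searched on both strands were the HIF cores ACGTG and GCGTG and the thyroid hormone receptor half-site AGGTCA. Each of the 3 sequences held 1 GCGTG, read on the opposite strand as CACGC, which begins 225 bases before the start in Scn4b, 58 in Dsp and 97 in Gja1. Such a match is common, as 28.2% of 32851 promoter windows of this length held GCGTG, 16.6% ACGTG and 14.0% AGGTCA. None of these 3 motifs occurred in the windows of Gja5 and Jup, and no window of the 5 held ACGTG or AGGTCA. These matches are a description of letters and were not linked to binding.

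Scn4b (NM_001013390), a sodium channel beta subunit that binds the pore-forming subunit, fell 8.29-fold. Scn4b was read from 1 probe with 1 spot per array, as were Gjc1, Pkp2 and Jup. Its log2 signal was 3.05, 2.26 and 2.02 in the control hearts and -2.13, 0.23 and 0.07 in the KO-labelled hearts. Every KO-labelled heart lay below every control heart, and KO-labelled replicate 1 lay more than 2 log2 units below the other 2. Group means were 2.44 ± 0.54 in control and -0.61 ± 1.32 in KO-labelled hearts (SD, n = 3 each), and their log2 difference was -3.05 ± 0.65 SE (95% interval -4.60 to -1.50, adjusted p = 0.0132). Without control replicate 1 the difference was -2.75 and did not pass (adjusted p = 0.0525), while leaving out KO-labelled replicate 1 gave -2.29.

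Over all genes and features 23% fell and 16.1% rose. Among 7 tested alpha subunits, 4 fell and 0 rose, with a median log2 difference of -0.70. Examples were the skeletal muscle channel gene Scn4a (-0.82), the neuronal gene Scn3a (-1.53) and Scn10a (-0.90), a channel of sensory neurons. Only 2 of 3 KO-labelled arrays read Scn3a well above background. The beta subunit gene Scn2b fell (-0.79, adjusted p = 0.0362) at a signal near background, with 1 of 3 KO-labelled arrays well above it. Scn2b did not pass under 12 of 19 alternatives, Scn10a under 10 of 20 and Scn3a under 9 of 19.

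Of 14 genes whose products bind, anchor or regulate the sodium channel, 5 fell, 1 rose and 8 did not pass, with a median of -0.35. The shares over all genes and features were 23% lower and 16.1% higher. Fgf13, an intracellular factor that binds the channel's tail, fell by 1.41 on the log2 scale (adjusted p = 0.00634), from 0.92, 0.62 and 0.85 in control to -1.12, -0.29 and -0.44 in KO-labelled hearts. Rangrf, which helps bring the channel to the membrane, fell by 0.99 and Cav3, the caveolin of muscle, by 0.82. The ankyrin genes Ank2 (-0.81) and Ank3 (-0.42), named after their values were seen, completed the falls. Ywhah, which encodes a 14-3-3 adaptor protein, rose by 0.54. Ank2 did not pass under 11 of 20 alternatives, Ank3 under 9 and Cav3 under 7.

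**Figure D1:**
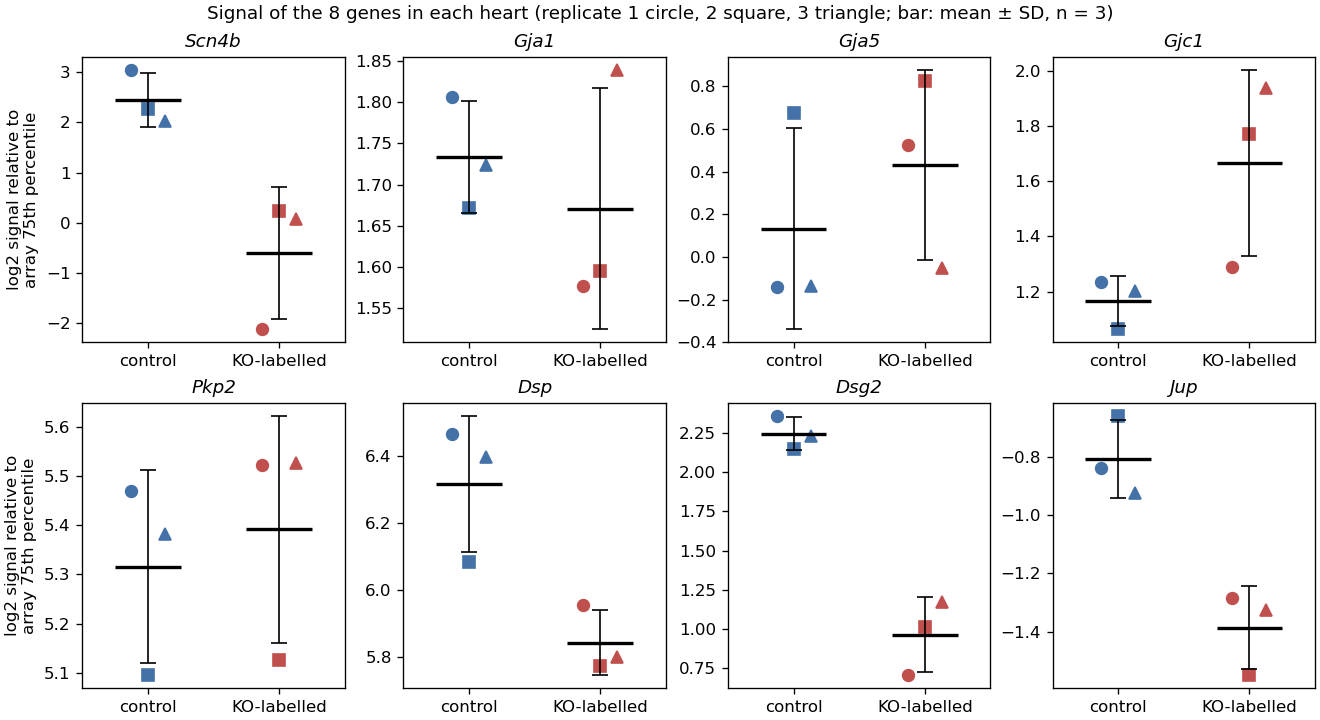
Log2 signal minus that of the array's 75th percentile (y axis, a separate range per panel) in each control and KO-labelled heart for the 8 genes, with the mean and SD of 3 hearts as the bar. The groups do not overlap for Scn4b, Dsp, Dsg2 and Jup, lower in KO-labelled hearts, and for Gjc1, higher there, whereas they overlap for Gja1, Gja5 and Pkp2.

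The connexins did not pass. Gja1 (NM_010288) encodes Cx43, the main gap junction protein of working ventricular muscle. Its log2 signal was 1.81, 1.67 and 1.72 in control and 1.58, 1.60 and 1.84 in KO-labelled hearts, with the groups overlapping. The log2 difference was -0.06 ± 0.12 SE (95% interval -0.36 to 0.23, adjusted p = 0.71). Its sign turned positive after cyclic loess scaling (0.057), spike-in scaling, which levels the arrays by their E1A control probes (0.22), and with array weights (0.069). Gja1 was read from up to 10 repeat spots per array, whose SD within an array was 0.06 to 0.08, beside an SD of 0.07 between control hearts and 0.15 between KO-labelled hearts (n = 3 each).

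Gja5 (NM_008121) encodes Cx40, the connexin of atrial muscle, the fast conduction system and arterial endothelium. Gja5 signal was -0.14, 0.68 and -0.14 in control and 0.52, 0.82 and -0.05 in KO-labelled hearts, a log2 difference of 0.30 ± 0.31 SE (95% interval -0.44 to 1.04, adjusted p = 0.465). Its hearts ran high and low in both groups. The 3 hearts with the highest Gja5 signal, KO-labelled replicate 2, control replicate 2 and KO-labelled replicate 1, were also the 3 highest for Sln, for Myl7 (6.79 in control replicate 2, and 4.96 and 7.08 in KO-labelled replicates 1 and 2) and for Myl4 (9.48, and 8.33 and 9.59), both atrial myosin light chains. In the other hearts Myl7 had -1.74 and 4.88 in control replicates 1 and 3 and 0.38 in KO-labelled replicate 3. These 3 atrial genes were picked after their values were seen. Dkk3 of the same list had the same 3 hearts highest, whereas Nppa, Kcnj3, Kcnj5, Nr2f2 and Stard10 did not, and all 3 control hearts were highest for Kcnj3 and Kcnj5. The part of atrial tissue in the Gja5 signal was not tested. With control replicate 1 and KO-labelled replicate 3 left out, a choice made after seeing the data, the Gja5 difference was 0.41 ± 0.33 SE (adjusted p = 0.464). A further Gja5 probe gives no reading, since none of the 6 arrays had it well above background.

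**Figure D2:**
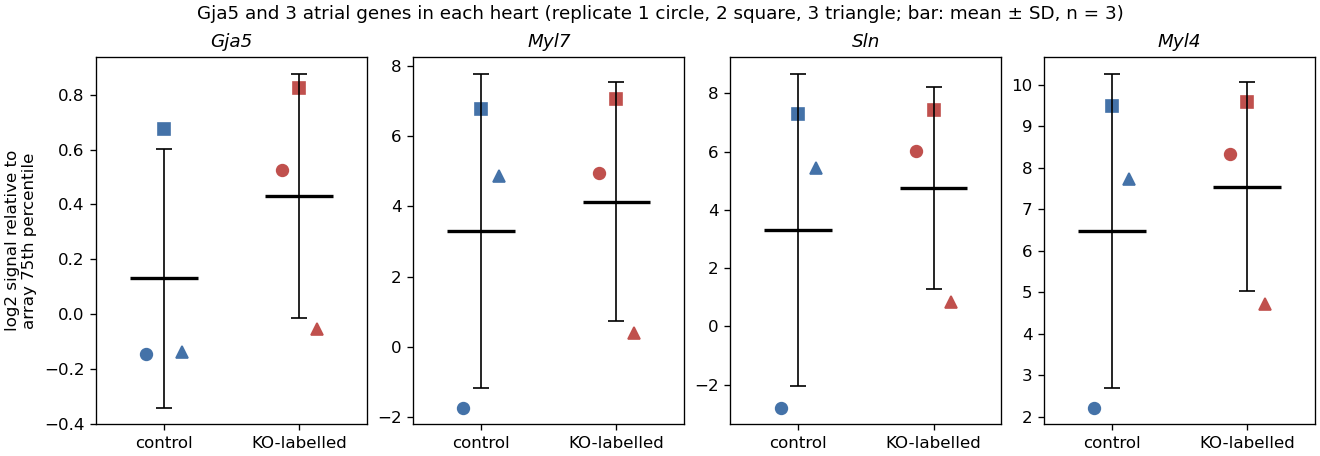
Log2 signal minus that of the array's 75th percentile (y axis, a separate range per panel) of Gja5 and the atrial genes Myl7, Sln and Myl4 in each heart, with the mean and SD of 3 hearts as the bar. Replicate 2 of either group is highest in every panel, and Sln spans -2.79 to 7.30 among control hearts alone.

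The atrial list as a whole also varied within groups. Its 9 tested genes summed to between 170.0 and 2413 times the array's 75th percentile signal in control hearts and between 1459 and 2819 in KO-labelled hearts, and 0 rose and 1 fell. That 1 was Kcnj5, a potassium channel subunit gene (-0.71). Of 9 tested markers of arterial endothelium, 1 rose (Unc5b, 1.40) and 2 fell (Sox17, -0.69, and Hey1, -0.66), with a list median of -0.11. Their summed signal was 26.8 to 28.7 in control and 33.3 to 41.9 in KO-labelled hearts. Unc5b, with a mean log2 signal of 2.21 in control and 3.61 in KO-labelled hearts, carries much weight in that sum. Gja4, the arterial connexin, was in that list and had 0.33 (adjusted p = 0.225). Of 5 tested markers of conduction tissue 1 fell (Ntm), while for the defining genes Hcn4 and Cntn2 none of the 6 arrays lay well above background. Ntm fell 2.17-fold as fitted (mean log2 signal -2.77 in control and -3.89 in KO-labelled hearts, adjusted p = 0.00393). In KO-labelled hearts 0 of 3 arrays read Ntm well above background. Ntm thus entered the test through the control arrays alone, the group where it was high. Over 18 alternatives its log2 difference ran from -1.25 to -0.36, and it passed under 17. The alternative that asks for signal above background on all arrays could not include Ntm.

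Gjc1 (NM_008122) encodes Cx45, the connexin of the nodes and of the early heart. Gjc1 signal was 1.23, 1.06 and 1.20 in control and 1.29, 1.77 and 1.94 in KO-labelled hearts. The KO-labelled hearts all lay above the control hearts, but replicate 1 did so by only a little. The log2 difference of 0.50 ± 0.19 SE did not pass (95% interval 0.06 to 0.95 before adjustment, adjusted p = 0.0725). It passed under 5 of 20 alternatives, among them cyclic loess scaling (0.62, adjusted p = 0.0359) and leaving out KO-labelled replicate 1 (0.69, adjusted p = 0.0172).

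Subtracting one gene from another within each array removes any array-wide scaling. Gjc1 minus Gja1 was -0.57, -0.61 and -0.52 in control and -0.29, 0.18 and 0.10 in KO-labelled hearts. The control values, with an SD of 0.04 (n = 3), all lay below the 3 KO-labelled values, and the change was 0.56 ± 0.15 SE (exact permutation p = 0.1, the smallest that 3 hearts against 3 allow, and adjusted p = 0.15 over the 6 such gene pairs compared). Gja5 minus Gja1 changed by 0.36 ± 0.45 SE with overlapping groups (exact permutation p = 0.5, adjusted p = 0.6).

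Of 20 other connexin and pannexin genes, 15 were below the filter on dim probes and 5 were tested. Panx1, whose channels open to the outside of the cell and release ATP, rose 4.59-fold, from 0.26, 1.40 and 0.67 in control to 3.46, 2.49 and 2.98 in KO-labelled hearts (log2 difference 2.20 ± 0.35 SE, adjusted p = 0.0059). Gja3, known as a lens connexin, fell by 0.77 and Gjb1, a liver and myelin connexin, by 0.42. Gjb1 passed under 8 of 20 alternatives, against 19 of 20 for Panx1.

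Among the desmosomal genes, Dsg2 (NM_007883), the desmosomal cadherin of heart muscle that binds its neighbour outside the cell, fell 2.43-fold. Dsg2 signal was 2.36, 2.15 and 2.23 in control and 0.71, 1.02 and 1.17 in KO-labelled hearts, with a gap between the groups wider than the range of either. The group means were 2.24 ± 0.11 and 0.97 ± 0.24 (SD, n = 3 each), and their log2 difference was -1.28 ± 0.15 SE (95% interval -1.65 to -0.91, adjusted p = 0.00317). A second Dsg2 probe had -0.27, -0.73 and -0.44 in control and -2.17, -1.71 and -1.65 in KO-labelled hearts, a difference of -1.36 (adjusted p = 0.00438 with every kept probe as a feature). Dsg2 passed under 19 of 20 alternatives, the exception being that with both hearts lowest in Sln and Myl7 left out, where the difference was -1.33 (adjusted p = 0.0556) and 1.96% of all genes and features passed. Normexp background correction gave -0.94.

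Jup (NM_010593), plakoglobin, which links the cadherin tails to the plaque and also sits in adherens junctions, fell 1.49-fold. Jup signal was -0.84, -0.66 and -0.92 in control and -1.28, -1.55 and -1.33 in KO-labelled hearts, without overlap. The log2 difference was -0.58 ± 0.13 SE (95% interval -0.90 to -0.26, adjusted p = 0.0174). With spike-in scaling it was -0.30 and did not pass (adjusted p = 0.373), nor did Jup pass without control replicate 1 (-0.59, adjusted p = 0.0604) or without KO-labelled replicate 3 (-0.61, adjusted p = 0.0501).

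Dsp (NM_023842), desmoplakin, which ties the plaque to desmin filaments, fell 1.39-fold, close to the threshold. Dsp signal was 6.47, 6.08 and 6.40 in control and 5.95, 5.77 and 5.80 in KO-labelled hearts, and control replicate 2 lay only a little above the highest KO-labelled heart. The log2 difference was -0.47 ± 0.14 SE (95% interval -0.82 to -0.13, adjusted p = 0.0396), and it did not pass under 12 of 20 alternatives, including leaving out any single heart other than control replicate 2. With spike-in scaling it was -0.19 (adjusted p = 0.386). The repeat spots of this probe, up to 10 per array, had an SD of 0.04 to 0.07 within an array. A dimmer second Dsp probe gave -0.48, with 0.39, -0.30 and 0.26 in control and -0.13, -0.55 and -0.42 in KO-labelled hearts, and did not pass (adjusted p = 0.117 with every kept probe as a feature).

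Pkp2 (NM_026163), plakophilin-2, which gathers desmoplakin at the plaque and is known to keep sodium channels and Cx43 at the disc, did not pass. Pkp2 signal was 5.47, 5.09 and 5.38 in control and 5.52, 5.13 and 5.53 in KO-labelled hearts, nearly the same spread in both groups. The log2 difference was 0.08 ± 0.17 SE (95% interval -0.33 to 0.48, adjusted p = 0.743), and its sign turned without control replicate 2 (-0.034).

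Differences between desmosomal genes were also taken within each array, and none of the 3 passed. Pkp2 minus Dsp lay between -1.02 and -0.99 in the control hearts and was -0.43, -0.65 and -0.27 in KO-labelled hearts, a change of 0.55 ± 0.11 SE. Dsg2 minus Dsp was -4.11, -3.94 and -4.17 in control and -5.25, -4.76 and -4.63 in KO-labelled hearts, a change of -0.81 ± 0.20 SE. Neither pair overlapped between the groups, and each had the smallest exact permutation p possible, 0.1, adjusted p = 0.15. Jup minus Dsp changed by -0.10 ± 0.20 SE with overlapping groups (exact permutation p = 0.8, adjusted p = 0.8).

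**Figure D3:**
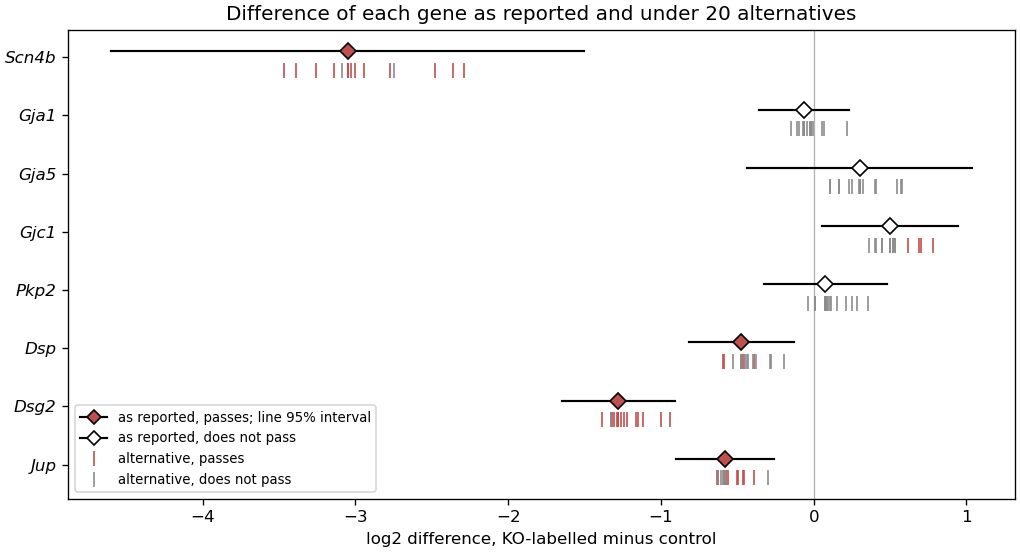
Log2 difference, KO-labelled minus control (x axis), of each of the 8 genes as reported (diamond, with the 95% interval of limma's fit before adjustment as a line) and under 20 alternative settings (ticks below). Scn4b, Dsg2, Jup and Dsp lie below 0 under every one of these settings and Gja5 and Gjc1 above 0, while Gja1 and Pkp2 have ticks on both sides.

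Of 8 other desmosomal genes tested, 2 rose, 2 fell and 4 did not pass, where 16.1% of all genes and features rose and 23% fell. Pkp1, the plakophilin of skin, was at least 3.94-fold higher in KO-labelled hearts (mean log2 signal -2.51 against a floor of -4.49, the lowest signal well above background or the probe's own, per array, where the measured control mean was -5.30; adjusted p = 0.00504), and 0 of 3 control but 3 of 3 KO-labelled arrays read it well above background. That bound does not hold with normexp background correction, where the log2 difference was 0.39 and did not pass (adjusted p = 0.115). Des, the desmin of the muscle intermediate filament, rose by 1.05 (adjusted p = 0.0192), and the plaque genes Ppl (-1.82) and Pkp4 (-0.79) fell. Dsc2, the desmocollin that pairs with Dsg2, named after its value was seen, had -0.74 ± 0.25 SE without passing (adjusted p = 0.056). For Dsc1, Dsg1a and Dsg4, cadherins of skin, none of the 6 arrays lay well above background. Of 5 tested markers of epithelium and epidermis, 1 rose and 3 fell. Their summed signal was 14.5 to 17.9 in control and 9.23 to 12.3 in KO-labelled hearts. Most of that sum was Trp63 (mean log2 signal 3.89 in control and 3.22 in KO-labelled hearts). None of the 6 arrays had the defining genes Epcam and Cdh1 well above background.

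Of 18 genes of the adherens junction and of the mixed junction of heart muscle, 2 rose, 6 fell and 10 did not pass, with a median of -0.17. That stands beside 16.1% of all genes and features higher and 23% lower. Ldb3, which encodes a Z-disc and disc adaptor, fell by 1.15 (adjusted p = 0.00363), Arvcf, a catenin that binds cadherin tails, by 0.66, and Nexn, an actin-binding protein, by 0.54. Tln1, which encodes talin, rose by 0.68 (adjusted p = 0.0151), and so did the actin-binding disc protein gene Xirp2 (1.05, adjusted p = 0.0453), named after its value was seen. Cdh2, N-cadherin, the main cadherin of these junctions, also named after its value was seen, had -0.30 ± 0.18 SE (adjusted p = 0.23). Xirp2 and Nexn did not pass under 8 of 20 alternatives each.

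Of 15 tested transcription factors known to set conduction genes, 2 rose, 5 fell and 8 did not pass (median -0.34). Among all genes and features, 39.1% passed, 16.1% higher and 23% lower. Hopx, a homeodomain cofactor that acts in ventricular conduction, fell by 1.98 (adjusted p = 0.0114), Tbx5, an activator of Gja5, by 1.39 (adjusted p = 0.0206) and Gata6 by 0.74 (adjusted p = 0.00415). Irx4 (-0.60) and Tbx3 (-0.95), a repressor of Gja1 and Gja5 in the nodes, completed the falls. Tbx20 rose by 0.74 and Id2 by 0.96. Irx4, Tbx3 and Id2 were named after their values were seen. Tbx3 did not pass under 10 of 20 alternatives, Tbx5 and Id2 under 8 each.

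**Figure D4:**
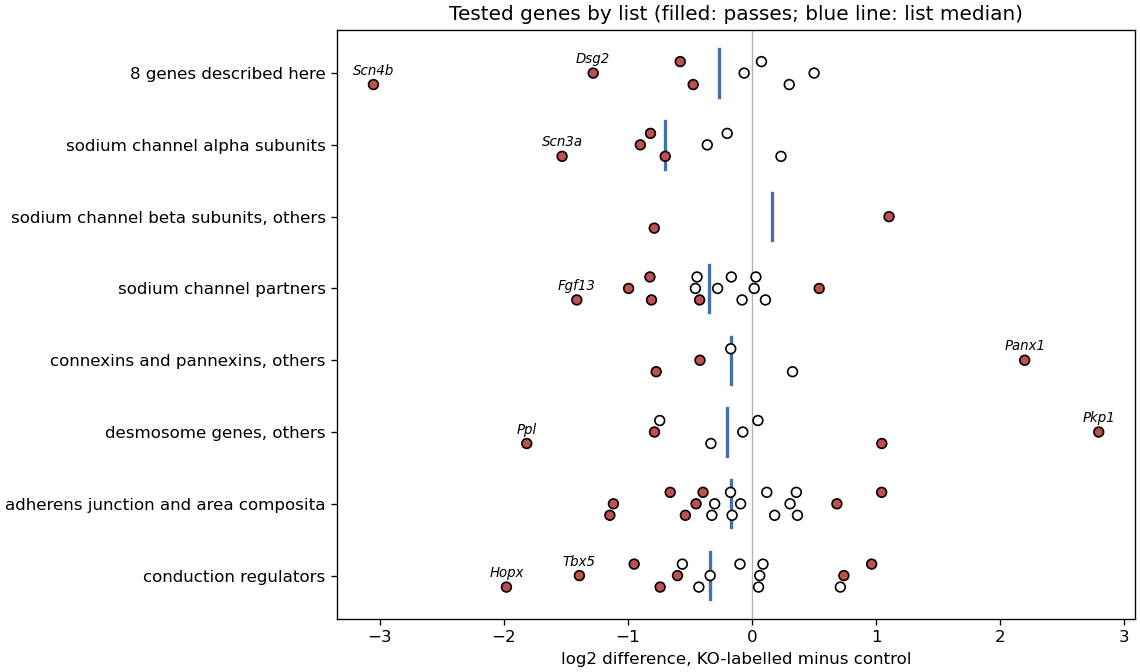
Log2 difference, KO-labelled minus control (x axis), of every tested gene in the 8 described here and in 7 related lists (rows), filled where the gene passed, with the list median as a blue line. Scn4b lies lowest at -3.05 and Pkp1 highest at 2.79 as fitted.

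The counts of marker genes that passed, here and above, stand beside the 39.1% of all genes and features that did. Among cardiomyocyte markers 10 of 14 fell and 0 rose (median -0.70), and their summed signal was 11702 to 16140 in control and 7607 to 9417 in KO-labelled hearts. Among fibroblast markers 8 of 12 rose and 1 fell (median 1.15), with 750.2 to 1078 in control and 1315 to 1373 in KO-labelled hearts. Of 9 macrophage markers 5 rose and 2 fell, of 13 endothelial markers 0 rose and 2 fell, of 10 smooth muscle and pericyte markers 3 rose and 4 fell, and of 9 epicardial markers 1 rose and 0 fell. Of 8 adipocyte markers 1 rose and 0 fell, of 5 lymphocyte markers 1 rose and 0 fell, of 8 Schwann and neuronal markers 3 rose and 2 fell, and of 6 erythroid markers 0 rose and 1 fell. The part of these in the falls of Scn4b, Dsg2, Jup and Dsp was not tested.

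Genes were also compared by the distance of their 6 centred log2 values over the arrays, among 12808 other named genes. Nearest to Scn4b were Lgals4 (0.63) and Pla2g2c (0.72), and nearest to Gja1 were Tubgcp3 (0.06) and Gnl3l (0.08). Nearest to Gja5 were Peg3 (0.30) and Slc22a18 (0.34), and nearest to Dsp were Mrps10 (0.05) and Rab10 (0.06). The values were not scaled by their spread, so genes that vary little, such as Gja1, lie close together. A small distance is therefore not a sign of a shared pattern, and distances do not compare between members.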

How the data were processed

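RNA of 6 mouse hearts was read on 1-colour Agilent arrays. The deposited scanner files hold the spots' intensity on a linear scale, background-subtracted and detrended by Agilent Feature Extraction 11.0.1.1 per the file headers and not scaled between arrays, and flags of 0 or 1. Log2 values stand in the deposited value table, and the submitters' processing notes name R 3.1.3 beside Feature Extraction. Its scale and centring are not given in the sources used here, and it served as an alternative. The labels' protocols name a column kit for hearts and also a blood RNA kit with globin removal, which was not resolved.

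Outlier spots were left out, processed signals were turned into log2, repeat spots were averaged and the array's 75th percentile was subtracted. Of 55681 probes, 73 were dropped for having nothing but outlier spots on an array. RefSeq accessions named 26551 of the 55608 kept probes (gene table of GRCm38.p6, used for names only). A probe was tested if all 3 arrays of either group read it well above background, and the brightest probe stood for a gene. R 4.3.3 with limma 3.58.1 gave the tests, Benjamini-Hochberg adjusted at 0.05, 2-sided, and were tested on simulated data. Differences within arrays had exact permutation tests, 2-sided. The number of arrays limits the precision. Members, lists and tests were chosen with earlier results of these data known. Genes named were the 8, Egln1, Egln3, up to 4 passing genes of each related list by smallest p (2 where fewer than 2 passed) and the 2 nearest in pattern to 4 members, and marker lists are given by counts. Some genes and 1 gene pair that the rule names are not reported here. Normexp used the median spot signal, since the files hold no mean. A slide block could not be fitted with 1 slide. Alternatives were background correction, scaling, value source, filter, choice of probe, variance model, array weights, replicate block and leaving out hearts.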

Additional observations from a re-analysis of the deposited data

How the results depend on the processing

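Values are log2 differences, KO-labelled minus control. Over 20 alternatives, Scn4b, Gja5, Gjc1, Dsp, Dsg2 and Jup kept their sign, and Gja1 turned with cyclic loess (0.057), spike-in scaling (0.22) and array weights (0.069). Leaving out single hearts gave -3.47 to -2.29 for Scn4b, 0.37 to 0.69 for Gjc1, -0.034 to 0.21 for Pkp2, -0.59 to -0.40 for Dsp, -0.64 to -0.50 for Jup, -0.20 to 0.085 for Jup minus Dsp, 3900 to 8692 for all calls and 1 to 4 for calls among the 8 genes. Gjc1 passed with cyclic loess (0.62), spike-in scaling (0.78), trend and robust variance (0.50) and array weights (0.70). Dsp did not pass with quantile scaling (-0.28), cyclic loess (-0.29), spike-in scaling (-0.19), no filter on dim probes (-0.47), the mean of its probes (-0.48) or the replicate block (-0.47). Jup did not with spike-in scaling (-0.30), no filter (-0.58) or the replicate block (-0.58). Normexp gave -0.55 for Dsg2 minus Dsp. All calls numbered 4345 without a filter, 13709 with array weights and 4854 with the replicate block, beside 7820 as reported, and calls among the 8 genes 2 without a filter and 2 with the block, beside 4. The cause of these changes was not tested. Without a filter 37174 features were adjusted over in place of 20020, and SEs also widened, as for Dsp from 0.14 to 0.17.

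Without both hearts lowest in Sln and Myl7 (control replicate 1 and KO-labelled replicate 3), 2 against 2, 401 genes and features and 0 of the 8 passed, at -3.09 for Scn4b, -0.38 for Dsp, -1.33 for Dsg2 and -0.62 for Jup. By unadjusted p in limma, 3 of the 8 (Dsg2, Jup and Scn4b) lay below 0.05. The share of all genes and features below that unadjusted line is not given here, so the count is not a result about the 8. This setting and spike-in scaling were added after the data were seen. Cyclic loess and spike-in scaling moved the median of all genes by 0.14 and 0.28, and turned the share of higher calls from 41.1% to 55.3% and 63.5%. Over all genes and features tested, the deviations of hearts with equal replicate numbers correlated at -0.15, -0.13 and -0.10. No shared deviation was thus seen over the whole, but single genes differed. The replicate block narrowed the SE of Gja5 from 0.31 to 0.17 and that of Pkp2 from 0.17 to 0.12. It also narrowed that of Dsp, and widened those of Scn4b, Gja1, Gjc1, Dsg2 and Jup. These values cannot show whether hearts were paired. Leaving out control replicate 1 (3900), control replicate 3 (4019) or KO-labelled replicate 3 (5110) lowered the count of all calls most.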
